A study of Rattus norvegicus with 12 samples.

Results

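Expression of 10 genes of the unfolded protein response and the integrated stress response was followed in rat left ventricle by RNA-seq. The genes were Ern1, Atf6, Xbp1, Atf4, Ddit3, Trib3, Sesn2, Asns, Chac1 and Herpud1. They were taken by symbol from the count table, which held all 10 among its 34599 genes, and all 10 were among the 15101 genes with enough counts to be tested. Left ventricular tissue came from 12 male SD rats, 4 in each group, at 1 day after surgery. Sham rats had thoracotomy without ligation, and in MI rats the left anterior descending coronary artery was tied off. The iCarP+/Light+ rats had the same ligation, and 10 min later the infarcted wall was injected with Chlorella, a green alga whose photosynthesis makes oxygen. A patch carrying an optical fiber (iCarP) was then glued onto the heart and lit for 3 h at 55 mW. MI and iCarP+/Light+ rats thus shared the ligation and differed in alga, patch, adhesive and illumination at once. Patch-bearing rats without light (iCarP+/Light-) were not analysed here. Infarct regions were sampled according to the labels, which do not say where in the Sham ventricle tissue was taken. The study's methods give the age of its SD rats as 6 weeks, and a sequencing batch is not given in the sources used here.

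Proteins that fold poorly in the endoplasmic reticulum (ER) activate sensors in its membrane. IRE1, encoded by Ern1, splices the Xbp1 mRNA so that it yields an active transcription factor, ATF6 is cut in the Golgi to release another, and PERK phosphorylates the translation factor eIF2α. Phosphorylated eIF2α, which is also made under amino acid shortage, heme shortage or mitochondrial stress, lowers overall translation while ATF4 is translated more, and ATF4 then switches on genes for amino acid supply and, with its target CHOP (Ddit3), genes linked to cell death. In the heart both responses are known from ischemia and reperfusion. Gene counts show mRNA levels only, so neither splicing of Xbp1, cleavage of ATF6 nor translation of Atf4 was measured.

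Most of the 10 genes were higher in the infarct than in Sham tissue, and most were higher again in the infarct treated with the lit patch. From Sham to MI, 7 of the 10 rose and 1 fell at an adjusted p below 0.05 (edgeR's quasi-likelihood test, adjusted over all genes tested), where 30.2% of all genes tested rose and 33.6% fell. From MI to iCarP+/Light+, 7 of the 10 rose, against 11.6% of all genes. None fell at that threshold, against 2.01% of all genes, and all 10 log2 fold changes were above 0. In 5 genes (Atf4, Xbp1, Atf6, Trib3 and Sesn2) both steps were increases. Asns and Chac1 rose in the first step only at this threshold, Ddit3 in the second only, Herpud1 fell and then rose, and Ern1 passed the test in neither. Every rat of the upper group lay above every rat of the lower in 6 of the 10 genes for MI against Sham, where 59% of all genes were without overlap, and in 7 of the 10 for iCarP+/Light+ against MI, where 16.4% were.

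The libraries held 14064414 to 17136958 counts per rat. Levels are given as CPM (counts relative to the library size after TMM scaling). The scaling factors were 0.78 to 0.86 for Sham, 1.15 to 1.26 for MI and 0.96 to 1.05 for iCarP+/Light+ libraries. Rats are listed by number (1, 2, 3 and 5 in Sham, 1, 3, 4 and 5 in MI, and 1, 2, 4 and 5 in iCarP+/Light+). Marker genes of cell types differed between the groups. The 9 measured cardiomyocyte markers summed to between 42085 and 46275 CPM in Sham, between 2553 and 4948 in MI and between 1912 and 5886 in iCarP+/Light+ rats, and all 9 fell from Sham to MI. The 11 measured leukocyte markers summed to 351 to 565, 4914 to 8501 and 7640 to 13717 CPM in the same groups, and 11 of 11 rose from Sham to MI and 7 of 11 from MI to iCarP+/Light+. Fibroblast markers summed to between 8606 and 10693 CPM in Sham, between 2732 and 3153 in MI and between 1418 and 3064 in iCarP+/Light+ rats. Red blood cell markers went from between 8043 and 10830 CPM in Sham to between 2558 and 7118 in MI and between 6331 and 17734 in iCarP+/Light+ rats, with 5 of 7 lower at the first step and 4 of 7 higher at the second. The 7 endothelial markers tested all fell with MI. No marker of these lists was at 0 in a whole group. Their part in the results on the stress genes was not tested, and in bulk tissue fewer cells of a type and less RNA per cell cannot be told apart. Scaling by total counts alone moved the median log2 fold change of all genes from -0.06 to 0.52 for MI against Sham and from 0.01 to -0.25 for iCarP+/Light+ against MI. With that scaling 8 of the 10 genes rose and 1 fell from Sham to MI, against 51% and 18.4% of all genes, and 7 rose from MI to iCarP+/Light+, where 7.97% of all genes were higher and 18% lower. Directions that it turned are given with the genes.

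Promoters of the genes were searched for 4 short sequences known to be bound by factors of these responses. RefSeq windows of 300 bases (250 before the transcript start and 50 from it on, build GRCr8) were at hand for 8 of the 10 genes, with none for Atf6 and Ern1. The core of the C/EBP-ATF response element, TGATGNAA, to which ATF4 binds with a C/EBP partner, was in 3 of the 8 windows (Trib3, Chac1 and Herpud1) and in 3.98% of all 33469 windows. The ER stress element (CCAAT, then 9 bases, then CCACG), bound by ATF6 with NF-Y, was in the Xbp1 window and in 0.0657% of all windows. Its second form (ATTGG, then 1 base, then CCACG) was in the Herpud1 window and in 0.0508% of all. The shared XBP1 and ATF6 core TGACGTGG was in none of the 8 windows and in 0.595% of all. Both strands were searched, and the matches do not overlap one another. The windows of the 4 genes with a match are shown, so that the letters can be set beside what each gene did (Trib3 and Xbp1 rose at both steps, Chac1 rose with MI, Herpud1 fell and then rose), with the matching bases in capitals and the sequence running 5′ to 3′ along the gene. They lie at chr3:161275484-161275783 (minus strand), chr3:126795881-126796180 (plus strand), chr19:10614658-10614957 (minus strand) and chr14:84604373-84604672 (plus strand).
Trib3: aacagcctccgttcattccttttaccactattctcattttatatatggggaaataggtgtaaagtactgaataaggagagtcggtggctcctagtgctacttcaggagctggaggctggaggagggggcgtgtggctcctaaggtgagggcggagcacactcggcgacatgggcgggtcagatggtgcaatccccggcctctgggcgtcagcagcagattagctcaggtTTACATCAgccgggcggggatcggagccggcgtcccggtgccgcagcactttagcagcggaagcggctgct
Chac1: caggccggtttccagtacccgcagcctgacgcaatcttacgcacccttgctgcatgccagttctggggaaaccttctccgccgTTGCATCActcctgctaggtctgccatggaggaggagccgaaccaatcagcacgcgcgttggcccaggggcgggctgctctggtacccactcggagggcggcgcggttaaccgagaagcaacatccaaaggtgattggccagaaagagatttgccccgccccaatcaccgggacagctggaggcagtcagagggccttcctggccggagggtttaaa
Herpud1: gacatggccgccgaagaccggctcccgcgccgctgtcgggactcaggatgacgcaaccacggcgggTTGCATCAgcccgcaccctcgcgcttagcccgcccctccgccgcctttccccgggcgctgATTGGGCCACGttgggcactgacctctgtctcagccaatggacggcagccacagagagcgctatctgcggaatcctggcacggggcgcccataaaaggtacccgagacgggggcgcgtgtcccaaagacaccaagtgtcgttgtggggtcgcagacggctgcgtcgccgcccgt
Xbp1: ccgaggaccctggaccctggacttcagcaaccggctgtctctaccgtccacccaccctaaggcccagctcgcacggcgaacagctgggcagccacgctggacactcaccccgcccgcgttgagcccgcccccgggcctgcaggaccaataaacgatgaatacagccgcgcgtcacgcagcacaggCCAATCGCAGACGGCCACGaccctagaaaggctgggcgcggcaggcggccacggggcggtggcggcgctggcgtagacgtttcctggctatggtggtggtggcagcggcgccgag
The 3 response element cores read on the opposite strand of the gene, starting 21 bases before the transcript start in Trib3, 167 in Chac1 and 184 in Herpud1. The ER stress elements read along the gene, starting 65 bases before the start in Xbp1 and 124 in Herpud1. The Herpud1 window and the Asns window, which held no match, belong to a transcript that starts inside the annotated span of the gene. A match is a description of the letters and not evidence of binding in these hearts, and no binding was measured.

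Among the sensors and the factors they activate, Xbp1 and Atf4 rose at both steps with no overlap between neighbouring groups, Atf6 did so with some overlap between Sham and MI, and Ern1 did not pass the test. Ern1 (ENSRNOG00000012864, chromosome 10 from 94588555 to 94681914 in rn6) was at 38.0, 33.2, 33.6 and 32.1 CPM in Sham, 36.9, 31.6, 23.7 and 38.2 CPM in MI and 40.0, 49.0, 31.8 and 48.7 CPM in iCarP+/Light+ rats. All 3 groups overlapped, and MI rat 4 was the lowest of the 12. The fitted change was -0.07 on the log2 scale from Sham to MI (SE 0.17, edgeR adjusted p = 0.728) and 0.38 from MI to iCarP+/Light+ (SE 0.17, edgeR adjusted p = 0.168). The first value had no stable sign, being 0.52 with total counts alone (edgeR adjusted p = 0.0156), when its change relative to the median of all genes was -0.0039.

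Atf6 (ENSRNOG00000024632, chromosome 13 from 89055983 to 89242443) encodes the second sensor. Its level was 38.9, 46.9, 39.9 and 31.3 CPM in Sham, 91.0, 61.5, 40.3 and 79.4 CPM in MI and 93.2, 147, 139 and 183 CPM in iCarP+/Light+ rats. MI rat 4 lay within the Sham range while the other 3 MI rats were above it, and each treated rat was above each MI rat, rat 1 by the least. The gene rose by 0.80 on the log2 scale from Sham to MI (SE 0.25, edgeR adjusted p = 0.0125) and by 1.05 from MI to iCarP+/Light+ (SE 0.25, edgeR adjusted p = 0.0116). The second increase was 0.82 with an adjusted p of 0.0589 in edgeR without iCarP+/Light+ rat 5.

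Xbp1 (ENSRNOG00000010298, chromosome 14 from 85753760 to 85758145), whose mRNA IRE1 splices and which is a known target of ATF6, was at 85.6, 78.8, 71.8 and 77.3 CPM in Sham rats. It was at 149, 147, 186 and 123 CPM in MI and at 207, 252, 242 and 289 CPM in iCarP+/Light+ rats, so the 3 groups formed separate ranges in that order. The increases were 0.95 from Sham to MI (SE 0.14, edgeR adjusted p = 5.59e-05) and 0.71 from MI to iCarP+/Light+ (SE 0.14, edgeR adjusted p = 0.00356), both log2. Atf4 (ENSRNOG00000017801, chromosome 7 from 121480723 to 121482772), the central factor of the integrated stress response, was at 174, 182, 159 and 177 CPM in Sham, 272, 279, 342 and 199.8 CPM in MI and 384, 515, 533 and 602 CPM in iCarP+/Light+ rats. Its groups were also separate, with MI rat 5 closest to Sham and iCarP+/Light+ rat 1 closest to MI. Atf4 rose by 0.66 on the log2 scale from Sham to MI (SE 0.17, edgeR adjusted p = 0.00367) and by 0.90 from MI to iCarP+/Light+ (SE 0.17, edgeR adjusted p = 0.00287). Against Sham, the treated rats were 2.94-fold higher in Atf4, 3.16-fold in Xbp1 and 3.58-fold in Atf6.

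**Figure D1:**
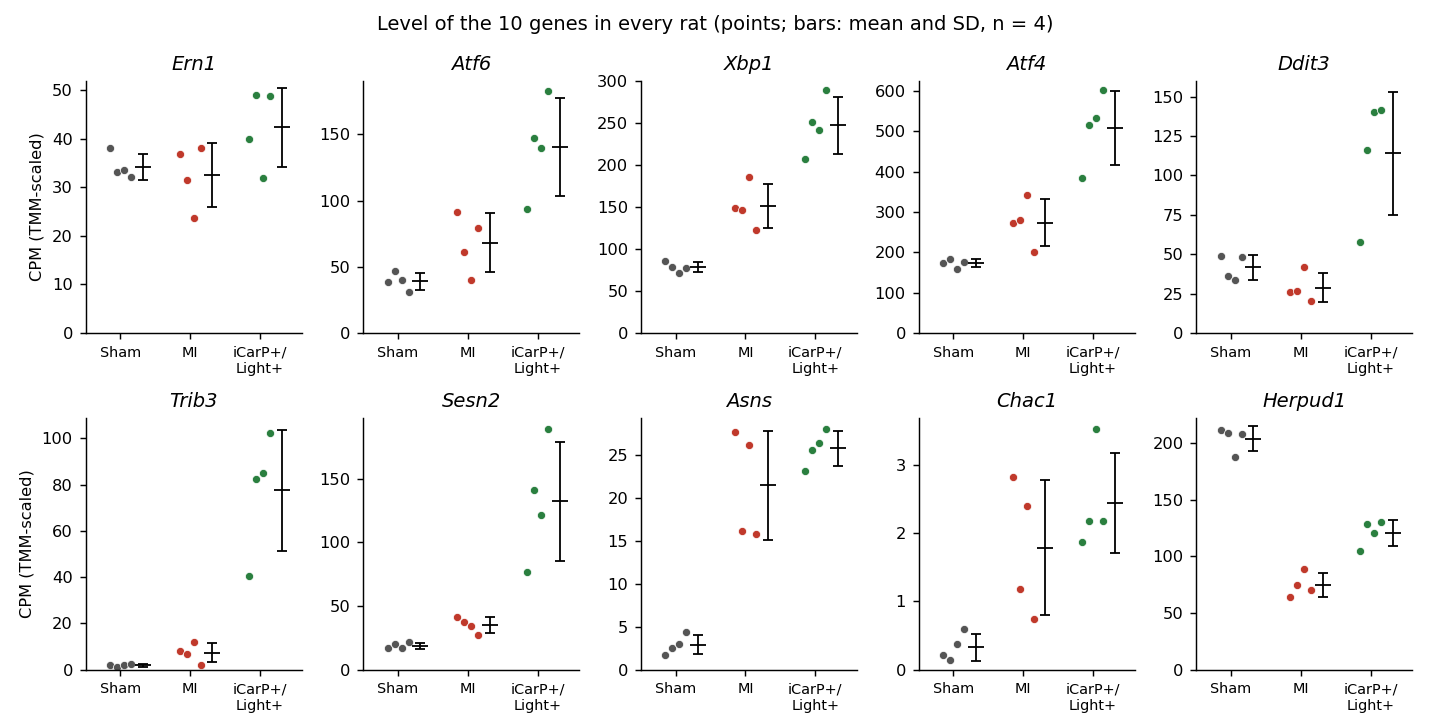
Level of each gene in each of the 12 rats, in TMM-scaled CPM on a linear axis from 0 (points, 1 per rat, by group), with the group mean and SD to the right (n = 4). Xbp1, Atf4 and Sesn2 climb from Sham to MI to iCarP+/Light+ in separate ranges, Ddit3 and Trib3 stand out in the treated rats, Asns is at 15.8 to 28.1 CPM in all 8 ligated rats against 1.73 to 4.35 CPM in Sham, and Herpud1 is highest in Sham.

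Ddit3, Trib3 and Sesn2, which are induced through PERK and ATF4, each had a higher level in every treated rat than in any other rat, as did Atf4, Xbp1 and Atf6. Ddit3 (ENSRNOG00000006789, chromosome 7 from 70580198 to 70585084), which encodes the transcription factor CHOP, was at 49.1, 36.3, 33.6 and 48.3 CPM in Sham, 26.1, 26.6, 42.1 and 20.5 CPM in MI and 57.9, 116, 141 and 142 CPM in iCarP+/Light+ rats. MI rat 4 lay among the Sham rats and the other 3 MI rats below all of them, whereas each treated rat was above each of the 8 others. The change from Sham to MI was -0.54 on the log2 scale and did not pass the test (SE 0.28, edgeR adjusted p = 0.106), it was 0.029 with total counts alone, and it passed in 2 of the 12 fits that left out 1 rat (-0.77 without MI rat 4). From MI to iCarP+/Light+ Ddit3 rose by 1.98 (SE 0.28, edgeR adjusted p = 0.000415), a 3.96-fold change. Its locus overlaps Mars on the opposite strand by 72 bases, and the strand setting of the counting is not given, so some of its reads could belong to Mars.

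Trib3 (ENSRNOG00000007319, chromosome 3 from 147813473 to 147819571) encodes a pseudokinase that is induced by ATF4 and CHOP and that inhibits AKT. It was scarce in Sham at 1.88, 1.09, 2.20 and 2.36 CPM, higher in MI at 8.24, 6.96, 12.1 and 2.18 CPM, and far higher in iCarP+/Light+ rats at 40.5, 82.5, 85.2 and 102 CPM. MI rat 5 was within the Sham range, while the lowest treated rat was above the highest MI rat by more than the whole range of MI. This was the largest change among the 10 genes from MI to iCarP+/Light+, 3.39 on the log2 scale or 10.5-fold (SE 0.42, edgeR adjusted p = 0.000137), after an increase of 1.97 from Sham to MI (SE 0.47, edgeR adjusted p = 0.00235). From Sham to iCarP+/Light+ it came to 41.2-fold (log2 5.37, SE 0.49, edgeR adjusted p = 7.63e-07).

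Sesn2 (ENSRNOG00000042785, chromosome 5 from 150684133 to 150704117) encodes sestrin 2, a leucine sensor that restrains mTORC1. Its level was 17.1, 19.9, 17.1 and 21.8 CPM in Sham, 41.7, 37.7, 34.7 and 27.0 CPM in MI and 77.1, 141, 122 and 189 CPM in iCarP+/Light+ rats. The 3 groups did not overlap. Sesn2 rose by 0.90 from Sham to MI (log2, SE 0.23, edgeR adjusted p = 0.00395) and by 1.91 from MI to iCarP+/Light+ (SE 0.23, edgeR adjusted p = 0.000106), which is 1.86-fold and then 3.75-fold.

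Of the targets of ATF4 in amino acid and glutathione metabolism, Asns and Chac1 passed the test from Sham to MI and not from MI to iCarP+/Light+. Asns (ENSRNOG00000007546, chromosome 4 from 33743364 to 33761163), asparagine synthetase, was at 1.73, 2.53, 3.04 and 4.35 CPM in Sham, 27.8, 16.2, 26.2 and 15.8 CPM in MI and 23.2, 25.6, 26.4 and 28.1 CPM in iCarP+/Light+ rats. MI rats fell into a higher pair (1 and 4) and a lower pair (3 and 5), and the treated rats lay close to the higher pair. Asns was 7.38-fold higher in MI than in Sham (log2 2.88, SE 0.27, edgeR adjusted p = 1.29e-06), the largest increase of the 10 genes at that step, and differed by 0.26 between MI and iCarP+/Light+ (SE 0.24, edgeR adjusted p = 0.549). Chac1 (ENSRNOG00000014387, chromosome 3 from 111160205 to 111163425), a glutathione-degrading enzyme, was near the limit of counting in Sham with 3, 2, 5 and 8 counts, or 0.217, 0.137, 0.380 and 0.590 CPM. It was at 2.82, 1.19, 2.41 and 0.745 CPM in MI and at 1.88, 2.18, 3.52 and 2.18 CPM in iCarP+/Light+ rats, where MI and treated rats overlapped and all 8 were above Sham. The increase was 2.42 from Sham to MI (log2, SE 0.52, edgeR adjusted p = 0.00124) and the next difference 0.44 (SE 0.44, edgeR adjusted p = 0.594). Chac1 had at most 59 counts in any rat, and its level in MI rats was 1.79 ± 0.984 CPM (SD, n = 4).

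Herpud1 (ENSRNOG00000018796, chromosome 19 from 11046909 to 11057254), which encodes an ER membrane protein that helps assemble the complex for ER-associated degradation, was the gene of the 10 that fell with MI. Sham rats were at 212, 209, 188 and 208 CPM, MI rats at 64.5, 75.1, 88.8 and 70.1 CPM and iCarP+/Light+ rats at 104, 128, 120.3 and 130.3 CPM. No groups overlapped, and the treated rats lay between the others. The decrease was -1.45 from Sham to MI (log2, SE 0.12, edgeR adjusted p = 4.62e-07), followed by an increase of 0.70 from MI to iCarP+/Light+ (SE 0.12, edgeR adjusted p = 0.00132), and treated rats differed from Sham by -0.75 (SE 0.12, edgeR adjusted p = 7.97e-05).

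**Figure D2:**
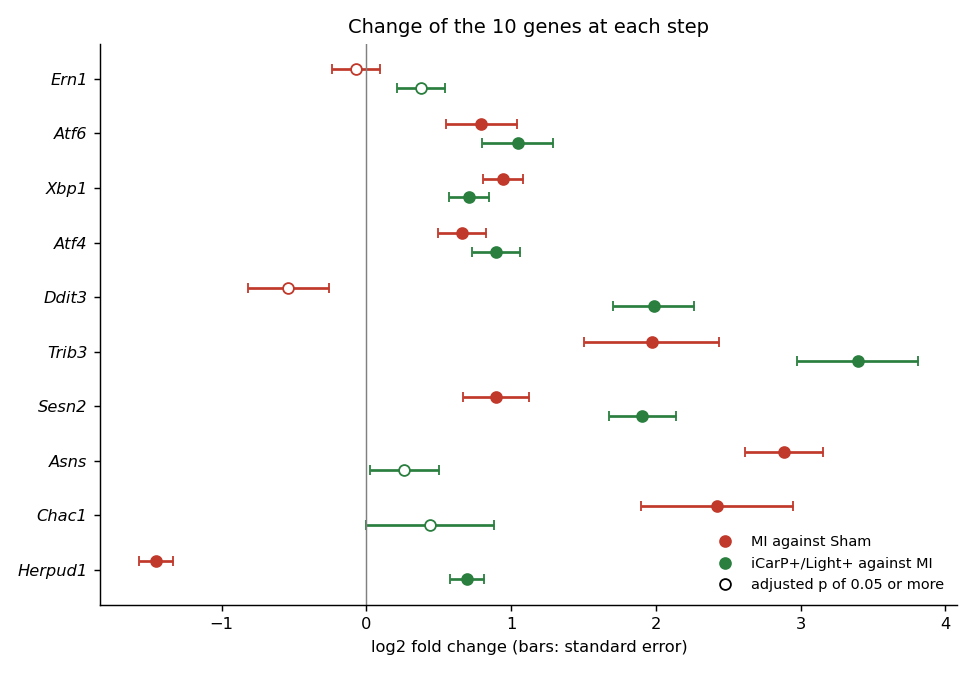
Log2 fold change of each gene from Sham to MI (red) and from MI to iCarP+/Light+ (green), with the standard error as bars. Filled circles have an adjusted p below 0.05 (edgeR) and open circles do not. Asns lies at 2.88 and 0.26, Chac1 at 2.42 and 0.44, Ddit3 at -0.54 and 1.98, and Herpud1 at -1.45 and 0.70.

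Whether the steps differed was tested directly, as the change from MI to iCarP+/Light+ minus the change from Sham to MI, a contrast chosen after the data were seen. Both steps share the MI rats, so an MI level set too low or too high would move them in opposite directions. The second step exceeded the first in Ddit3 by 2.52 (log2, SE 0.50, edgeR adjusted p = 0.00149) and in Herpud1 by 2.15 (SE 0.21, edgeR adjusted p = 1.61e-05), where 25.5% of all genes were higher by the same test. It was smaller than the first in Asns, with a difference of -2.62 (SE 0.41, edgeR adjusted p = 0.000318), where 19.5% of all genes were lower. These differences were called in each fit that left out 1 rat and with total counts alone, where the median of this contrast over all genes was -0.68 in place of 0.16. For Sesn2 (1.01, edgeR adjusted p = 0.053), Chac1 (-1.98, edgeR adjusted p = 0.0581) and Trib3 (1.42, edgeR adjusted p = 0.141) the difference did not pass, and for Atf4, Xbp1, Atf6 and Ern1 it was between -0.23 and 0.45. With total counts alone the sign turned for Atf4 (-0.60), Atf6 (-0.63) and Ern1 (-0.42), and the second step was smaller in Xbp1 (-1.07, edgeR adjusted p = 0.000757) and Chac1 (-2.80, edgeR adjusted p = 0.00836). The Chac1 difference was also called with DESeq2's size factors (-2.10, edgeR adjusted p = 0.046) and in DESeq2 (-2.13, DESeq2 adjusted p = 0.035). The first steps of Ddit3 and Herpud1 were below 0, and for Trib3 and Sesn2 a larger second step was not shown.

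Set directly against Sham, of the 10 genes, 8 were higher in iCarP+/Light+ than in Sham and Herpud1 was lower, where 33.5% of all genes were higher and 33% lower, and 9 of the 10 had groups without overlap, against 63.5% of all genes. The increases ran from 1.45 in Ddit3 (log2, SE 0.28, edgeR adjusted p = 0.000485) to 5.37 in Trib3, and Ern1 was at 0.31 (SE 0.17, edgeR adjusted p = 0.117). Ern1 passed the test with total counts alone (0.61, edgeR adjusted p = 0.00602), when 44.1% of all genes were higher and 24.1% lower, and with a replicate block (0.40, edgeR adjusted p = 0.0238).

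Levels were also compared between the genes after division by gene length (CPM per kb). In Sham the order began with Herpud1 (111 ± 5.99 CPM per kb, SD, n = 4), Atf4 (89.1 ± 5.16) and Xbp1 (70.2 ± 5.08), and ended with Asns (1.31 ± 0.493), Trib3 (0.973 ± 0.291) and Chac1 (0.211 ± 0.128). Neighbours in that order were separate in all 4 Sham rats except Sesn2 with Ern1 and Asns with Trib3, whose ranges overlapped. In iCarP+/Light+ rats Atf4 came first (262 ± 47.0 CPM per kb, SD, n = 4), then Xbp1 (222 ± 30.2), Ddit3 (123 ± 42.4) and Herpud1 (65.6 ± 6.38). Trib3, below Asns in Sham, came next at 40.1 ± 13.5 CPM per kb, above Sesn2 (35.4 ± 12.4) and Atf6 (30.0 ± 7.84) in each of the 4 treated rats although the group ranges overlapped. Chac1 was last in all 3 groups.

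The rank of each rat within its group was followed over the 10 genes. Among the treated rats, rat 1 was the lowest in 9 of the 10 genes, all but Ern1, and rat 5 the highest in 8. Among MI rats, rat 5 was the lowest in 7 genes. MI rat 4 was the highest in 5 and the lowest in Atf6 and Ern1, and MI rat 1 was the highest in 4. Each Sham rat was the lowest in 4 genes or fewer and the highest in 4 or fewer. Leukocyte markers summed to 7640 CPM in treated rat 1, 10176 in rat 2, 9801 in rat 4 and 13717 in rat 5, and the cardiomyocyte markers to 5886, 4847, 2765 and 1912 CPM. In MI rats the leukocyte sum was lowest in rat 5, at 4914 CPM, and highest in rat 4, at 8501 CPM, and the cardiomyocyte markers summed to 2553 CPM in rat 1, 4948 in rat 3, 4484 in rat 4 and 4113 in rat 5. The part of these markers in the differences between rats was not tested. With rat 1 in, the spread of the treated group was wide for Sesn2 (132 ± 46.5 CPM), Ddit3 (114 ± 39.2) and Trib3 (77.6 ± 26.2), and narrow for Asns (25.8 ± 2.04) and Herpud1 (121 ± 11.7).

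**Figure D3:**
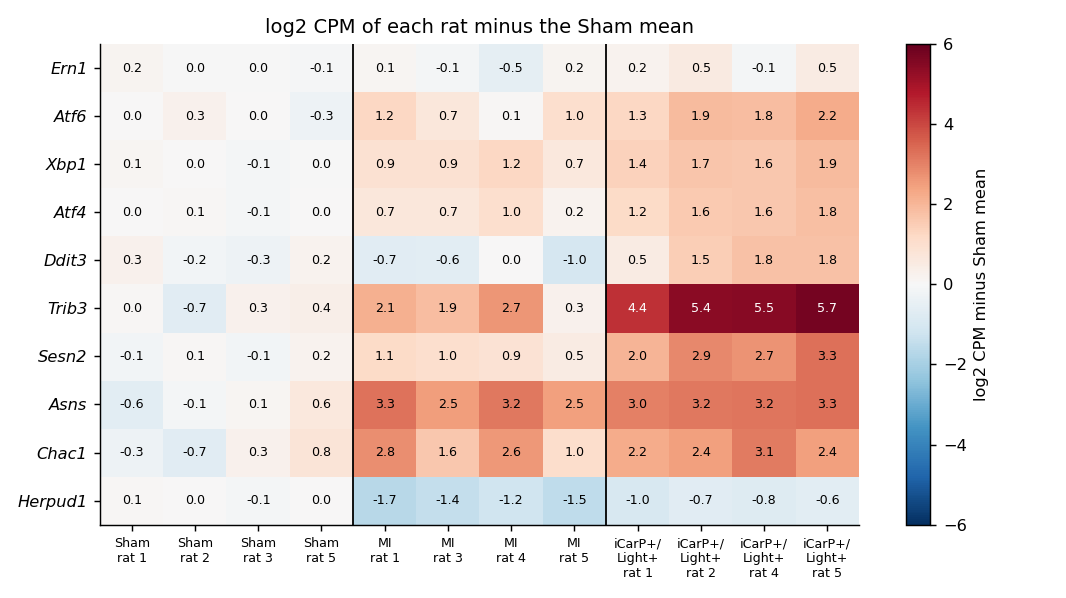
Log2 CPM (prior count 2) of each gene in each rat minus the mean of the 4 Sham rats, as colour and number, with black lines between the groups. Trib3 reaches 4.4 to 5.7 in the treated rats against 0.3 to 2.7 in MI rats, treated rat 1 has the lowest value of its group in 9 of the 10 genes, and Herpud1 is below 0 in all 8 ligated rats.

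Around the 10 genes, 128 others of the same pathways were drawn up as 7 lists, of which 125 were in the table and 123 were tested. From Sham to MI 79 of the 123 rose and 13 fell, against 30.2% and 33.6% of all genes (median log2 fold change 0.60, against -0.06 for all genes tested). From MI to iCarP+/Light+ 24 rose and 1 fell, against 11.6% and 2.01% of all genes (median 0.09, against 0.01). With total counts alone the first split was 101 higher and 2 lower (51% and 18.4% of all genes) and the second 14 higher and 28 lower (7.97% and 18% of all genes, whose median was then -0.25), so for the lists as a whole no direction of the second step is given that holds under both scalings.

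ER chaperones and folding enzymes rose together with MI, 22 of 27 (81.5%, against 30.2% of all genes, median 1.00), and 8 of 27 rose from MI to iCarP+/Light+ (29.6%, against 11.6%, median 0.24). Creld2, Sdf2l1 and Hsp90b1 (GRP94) had the largest increases with MI, by 2.54, 2.04 and 1.89 on the log2 scale (edgeR adjusted p = 1.32e-06, 2.27e-06 and 2.15e-06). The smallest that passed were in Erp44, Hspa13 and Txndc5, by 0.42, 0.42 and 0.31 (edgeR adjusted p = 0.014, 0.00857 and 0.00941). Hspa5, the chaperone BiP that holds the sensors inactive, was at 369.7 to 412 CPM in Sham, 822 to 1613 CPM in MI and 2064 to 3338 CPM in iCarP+/Light+ rats. The ranges were separate, and Hspa5 rose by 1.54 with MI and by 1.31 again in the treated rats (edgeR adjusted p = 2.28e-05 and 0.000703). Ero1a, the oxidase that drives disulfide bond formation and that is also induced by low oxygen, had the largest second step of the list, from 54.7 to 116 CPM in MI to 359 to 1061 CPM in iCarP+/Light+ rats (log2 3.38, SE 0.34, edgeR adjusted p = 3.31e-05). Dnajb9, a co-chaperone of BiP, was at 31.8 to 55.2 CPM in MI, overlapping Sham, and at 75.9 to 127 CPM in treated rats (log2 1.36, edgeR adjusted p = 0.000225). The other increases named by rule at the second step were smaller, 0.53 in Hyou1, 0.45 in Txndc11 and 0.37 in Sdf2. These were not called with total counts alone (0.26, 0.18 and 0.11, edgeR adjusted p = 0.0669, 0.288 and 0.435) or with a replicate block. Sdf2 was also not called with DESeq2's size factors, under either other filter or with only the compared groups. With total counts alone the list had 4 higher and 6 lower at the second step, where 7.97% of all genes were higher and 18% lower. The list median was then -0.02, against -0.25 for all genes, so its sign there depended on the scaling. At the first step 25 of 27 were higher with total counts alone, against 51% of all genes. By the direct test between the steps, the second was larger than the first in 2 of the 27 and smaller in 16, against 25.5% and 19.5% of all genes, and in 1 and 24 with total counts alone, against 10.1% and 43.9%.

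Of the signalling and feedback genes, 9 of 22 rose (40.9%) and 5 fell (22.7%) with MI, against 30.2% and 33.6% of all genes (median 0.15). At the second step 4 rose (18.2%) and 1 fell (4.55%), against 11.6% and 2.01% (median 0.06), and neither share is far from that of all genes. With total counts alone the first split was 16 higher and 1 lower (51% and 18.4% of all genes) and the second 1 higher and 4 lower (7.97% and 18% of all genes). The second step was larger than the first in 3 genes and smaller in 7 by the direct test, against 25.5% and 19.5% of all genes. Dnajc3, the inhibitor P58IPK that restrains PERK, rose at both steps (1.67 and 0.59, edgeR adjusted p = 3.43e-07 and 0.00695). Its second step was not called with total counts alone (0.32, edgeR adjusted p = 0.053) or with a replicate block (0.55, edgeR adjusted p = 0.0573). Ppp1r15a, which encodes GADD34 and returns eIF2α to its unphosphorylated state, did not pass the test with MI (0.34, edgeR adjusted p = 0.126). It was at 50.3 to 71.8 CPM in MI and 130.4 to 239 CPM in iCarP+/Light+ rats, an increase of 1.54 (SE 0.19, edgeR adjusted p = 0.000112). Of the mitochondrial arm of the integrated stress response, Dele1, which carries the mitochondrial signal to the kinase HRI, fell by 2.19 with MI (edgeR adjusted p = 1.22e-07), and this was the decrease of the list that was still called with total counts alone (-1.61). Oma1, the protease that cuts it, was at 19.1 ± 5.34 CPM in MI and 11.0 ± 0.703 CPM in iCarP+/Light+ rats (SD, n = 4), a change of -0.79 (edgeR adjusted p = 0.0135) after a rise of 0.83 with MI (edgeR adjusted p = 0.00202). The transcription factor gene Creb3l1 rose by 1.20 and then 0.51, and Eif2s1, which encodes eIF2α itself, by 1.22 with MI. The second step of Creb3l1 was not called with total counts alone (0.24, edgeR adjusted p = 0.225), only the compared groups or a replicate block. Wfs1 fell by 0.62 with MI (edgeR adjusted p = 0.000618), but was at -0.039 with total counts alone (edgeR adjusted p = 0.806). Eif2ak2 (PKR) was at 56.5 to 291 CPM in Sham and 64.2 to 128 CPM in MI rats, with overlap, and its decrease of 1.21 (edgeR adjusted p = 0.0304) was not called with total counts alone (-0.63, edgeR adjusted p = 0.194). It was also not called in limma-voom (-1.03, limma-voom adjusted p = 0.0722) or with a replicate block (-1.28, edgeR adjusted p = 0.0768). Ppp1r15b rose by 0.55 in the treated rats, but was not called with total counts alone (0.28, edgeR adjusted p = 0.105) or with a replicate block (0.54, edgeR adjusted p = 0.0696).

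Of the genes of ER-associated degradation, the pathway of Herpud1, 11 of 23 rose (47.8%) and 4 fell (17.4%) with MI, against 30.2% and 33.6% of all genes (median 0.30). From MI to iCarP+/Light+ 3 of 23 rose (13%), a share near the 11.6% of all genes (median 0.15). Edem1 and Edem2, which pull misfolded glycoproteins out of the folding cycle, rose with MI by 1.65 and 1.24 (edgeR adjusted p = 6.65e-07 and 1.55e-06), where Herpud1 fell. Erlec1, an ER lectin, fell by 1.31 (edgeR adjusted p = 1.59e-06). Herpud2 (-0.39) and Ufd1 (-0.44) also fell, but were at 0.20 and 0.13 with total counts alone. At the second step Derl1, a channel component, rose by 0.78 (edgeR adjusted p = 0.00104), Ube2j1 by 0.68 and Os9 by 0.50. Os9 was not called with a replicate block (0.45, edgeR adjusted p = 0.119) or with total counts alone (0.23, edgeR adjusted p = 0.167). With total counts alone 2 genes of the list were higher and 4 lower, against 7.97% and 18% of all genes. At the first step that scaling gave 19 higher and 1 lower, against 51% and 18.4% of all genes, and the decrease was in Erlec1 (-0.73). The second step was larger than the first in 2 genes and smaller in 4 by the direct test, against 25.5% and 19.5% of all genes. Derl3 passed the test with MI on 0 to 2 counts per Sham rat and 1 to 68 per MI rat, with overlap, and its fitted log2 value of 5.08 depends on the prior count. In limma-voom it was not called (3.88, limma-voom adjusted p = 0.139). The 6 plasma cell markers, of which Derl3 is itself 1 (at most 3.67 CPM in any MI rat), summed to 10.3 to 13.2 CPM in Sham and 199 to 338 CPM in MI rats. Their part in the Derl3 result was not tested.

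Of the ATF4 targets of amino acid supply, 14 of 19 rose (73.7%, against 30.2% of all genes) and 1 fell with MI (median 1.23). From MI to iCarP+/Light+ 3 of 19 were up (15.8%), near the 11.6% of all genes (median 0.08). By the direct test between the steps, the second was smaller than the first in 12 of 19 and larger in 3, against 19.5% and 25.5% of all genes. With total counts alone it was smaller in 14, against 43.9% of all genes, and the 3 larger ones were no longer called (edgeR). Slc7a11, the cystine carrier of the xCT exchanger, had 1 to 4 counts per Sham rat, 4.69 to 11.4 CPM in MI and 54.4 to 95.7 CPM in iCarP+/Light+ rats. It rose at both steps, by 5.35 (SE 0.41, edgeR adjusted p = 3e-07) and by 3.35 (SE 0.26, edgeR adjusted p = 4.4e-06), where the second step of Trib3 was 3.39. Slc1a5, a glutamine carrier, rose by 2.71 with MI (edgeR adjusted p = 8.22e-08) and was at 120.3 ± 13.4 CPM in MI and 128 ± 12.9 CPM in iCarP+/Light+ rats (SD, n = 4). Slc38a2, the carrier SNAT2, fell and then rose like Herpud1, by -0.55 with MI (edgeR adjusted p = 0.000771, but 0.032 with total counts alone) and by 0.67 in the treated rats (edgeR adjusted p = 0.00118). Pycr1 and Shmt2, for proline and serine metabolism, rose by 0.96 and 0.91 with MI, Slc7a3 rose on 25 counts or fewer per rat, and Gpt2 rose by 0.83 in the treated rats. Gpt2 was not called with total counts alone (0.55, edgeR adjusted p = 0.0688) or with a replicate block (0.80, edgeR adjusted p = 0.0534).

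Most of the aminoacyl-tRNA synthetase genes, which load amino acids onto tRNA, rose with MI. Of 13 genes of this set known to respond to ATF4 (with the tRNA exporter gene Xpot), 11 rose with MI (84.6%, against 30.2% of all genes, median 0.61), and none passed the test from MI to iCarP+/Light+ in edgeR (median -0.06, 1 at an unadjusted p below 0.05, 0 in DESeq2, 1 in limma-voom). Yars, Tars and Nars rose most with MI, by 1.20, 1.16 and 1.12 (edgeR adjusted p = 2.03e-06, 4.46e-07 and 6.76e-07), and Xpot, Aars and Lars least among those that passed, by 0.60, 0.56 and 0.40. Of 8 cytosolic synthetase genes not on that list, 6 rose (75%, against the same 30.2%) and Qars fell with MI (median 0.63), and none passed at the second step in edgeR (median -0.12, 0 at an unadjusted p below 0.05, 1 lower in DESeq2, 0 in limma-voom). Farsb, Farsa and Rars rose by 0.94, 0.94 and 0.89, Vars and Dars by 0.50 and 0.46, and Qars, at -0.43, was at 0.15 with total counts alone. The synthetase genes said to respond to ATF4 and the others thus had medians of 0.61 and 0.63, and their difference was not tested. With total counts alone 6 of the 13 and 7 of the 8 were lower at the second step, against 18% of all genes. By the direct test between the steps, the second was smaller than the first in 9 of the 13 and 5 of the 8, against 19.5% of all genes, and in 13 and 8 with total counts alone, against 43.9%.

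Of the stress targets of ATF4 and CHOP, 6 of 11 tested rose (54.5%, against 30.2% of all genes) and 2 fell with MI (median 0.79). With total counts alone 7 were up, against 51% of all genes. At the second step 6 of 11 were up (54.5%, against 11.6% of all genes), with a median of 0.64 against 0.01 for all genes. None was down (edgeR, also none at an unadjusted p below 0.05, in DESeq2 or in limma-voom), against 2.01% of all genes. With total counts alone 5 of 11 were up, against 7.97% of all genes. By the direct test between the steps, the second was larger than the first in 4 genes and smaller in 4, against 25.5% and 19.5% of all genes. With total counts alone it was larger in 2 and smaller in 5, against 10.1% and 43.9% of all genes. Ddit4 (REDD1), which like Sesn2 restrains mTORC1, was at 49.5 to 75.5 CPM in Sham, 44.9 to 63.8 CPM in MI and 198 to 456 CPM in iCarP+/Light+ rats. Sham and MI overlapped, and the treated rats rose by 2.59 (SE 0.23, edgeR adjusted p = 1.18e-05). Gadd45a, a gene of growth arrest, had the same course, at 47.5 to 55.7, 41.9 to 61.7 and 125 to 251 CPM, with an increase of 2.07 (SE 0.20, edgeR adjusted p = 2.59e-05). Cebpb, a partner of ATF4 and CHOP that is also abundant in myeloid cells, rose at both steps (2.23 and 2.26, edgeR adjusted p = 1.5e-05 and 0.000129). Gdf15, a secreted stress cytokine, likewise rose by 3.02 and by 1.54 (edgeR adjusted p = 1.32e-05 and 0.00515). From MI to the treated rats Stc2 rose by 1.47 and Eif4ebp1, a translation repressor, by 0.64 (edgeR adjusted p = 0.00518 and 0.0338), both with overlap. Eif4ebp1 was not called with total counts alone (0.37, edgeR adjusted p = 0.123), DESeq2's size factors, only the compared groups or a replicate block. Nor was it called where each sample needed 10 counts. With MI alone Atf3 and Cebpg rose by 1.78 and 0.79, while Vldlr fell by 0.93 and Atf5, with overlap, by 0.46. Neither decrease was called with total counts alone, where Vldlr was at -0.35 (edgeR adjusted p = 0.116) and Atf5 at 0.11. Of the 11 leukocyte markers, 11 rose with MI and 7 from MI to iCarP+/Light+ (ranges above), and their part in the changes of this list was not tested.

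**Figure D4:**
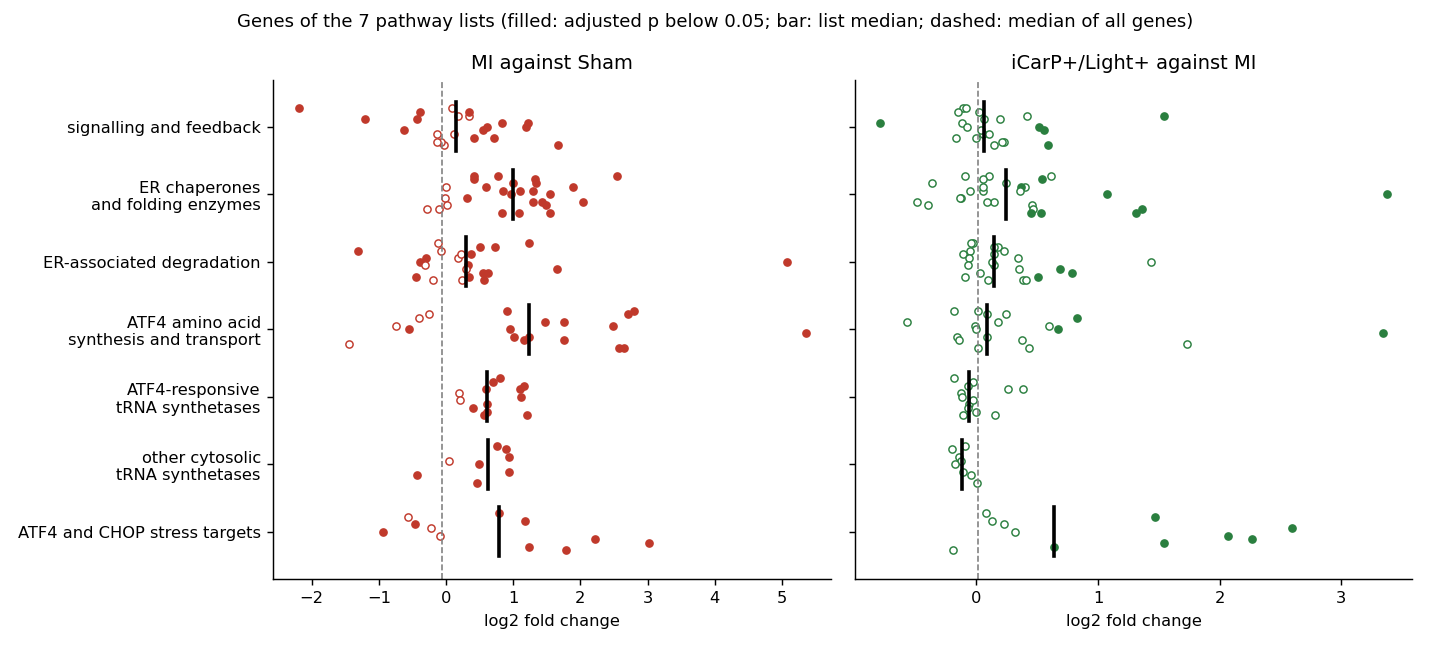
Log2 fold change of each tested gene of the 7 lists (points, filled where the edgeR adjusted p is below 0.05), for MI against Sham (left) and iCarP+/Light+ against MI (right), with the list median as a black bar and the median of all genes tested as a dashed line. Most chaperone, amino acid and synthetase genes lie right of the line at the first step and around it at the second, where the ATF4 and CHOP stress targets have a median of 0.64.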

How the data were processed

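RNA-seq was performed on left ventricular tissue of 12 rats (4 each in Sham, MI and iCarP+/Light+). The authors deposited a table of whole-number read counts by gene and rat, not normalized. The submitters' processing notes name HISAT2, featureCounts and rn6, and their versions, the strand setting and the annotation release are not given in the sources used here. The test was edgeR's quasi-likelihood F test (version 4.0.16, R 4.3.3) with TMM scaling, fitted to the 12 rats at once with a mean for each of the 3 groups. filterByExpr (minimum count 10) left 15101 genes, over which p-values were adjusted by Benjamini-Hochberg, and an adjusted p below 0.05 was called. Composition can move such values: mitochondrial genome genes took between 22.8% and 28.9% of the counts in Sham, 8.52% and 11.5% in MI, and 7.14% and 14.2% in iCarP+/Light+ rats. Alternatives were DESeq2's size factors, total counts alone, DESeq2 1.42.0, limma-voom (limma 3.58.1), other filters, no mitochondrial genome genes, only the compared groups, a replicate block and each rat left out. Methods were tested on simulated data.

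The 10 genes and the gene lists were chosen with earlier results of these data known. All 10 genes were named, and from each list the 3 highest and 3 lowest log2 fold changes among genes that passed at each step, and a gene so named is given at both steps where this helps. Rats of a group were separate animals, and their counts differed by more than sampling noise in each pair (chi-square per gene 14.8 to 119 over 18 pairs, where counting noise gives 1). The count table's coordinates (rn6) and the RefSeq promoter windows (GRCr8) were not combined. Plots were drawn with matplotlib.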

Additional observations from a re-analysis of the deposited data

Results flagged for a closer look

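Herpud1 in Sham rat 3 (187.6 CPM, 2471 counts) stood apart from the other Sham rats at 208 to 212 CPM. The gap took up 0.848 of the group's range on the log2 scale, above Dixon's 95% critical value for 4 samples. It was the 1 rat past that value among 30 combinations of gene and group, where chance gives about 1 in 20, or 1.5. All MI and iCarP+/Light+ rats were still below Sham rat 3, and the decrease of Herpud1 with MI was between -1.54 and -1.34 on the log2 scale over the 12 fits without 1 rat.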

How the results depend on the processing

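Of 925 fold changes refitted under the other settings, 868 had the same direction and the same call, as did 1211 of 1260 with 1 rat left out. Counts of calls moved by more than 1.5 times in 5 of 105. From MI to iCarP+/Light+, total counts alone gave 3926 of all genes (1204 higher and 2722 lower) and 42 listed genes, against 2051 and 25, and called 5 of the 10 genes as differing between the steps, against 3, adding Xbp1 (-1.07) and Chac1 (-2.80). Calls were higher in 30.7% of cases with total counts alone, 72.4% where each sample needed 10 counts and 70.8% in DESeq2, against 85.2%. With a replicate block 1298 of all genes and 14 listed genes were called, and Atf6 was at 1.02 (adjusted p = 0.061 in edgeR). Replicate numbers mark different rats, and same-numbered rats did not deviate together (r of -0.15 to 0.07 over 9 pairs). Signs turned with total counts alone for Atf4 (-0.60), Atf6 (-0.63) and Ern1 (-0.42) in the difference between the steps and, from Sham to MI, for Ddit3 (0.029), Ern1 (0.52), Herpud2 (0.20), Ufd1 (0.13), Slc38a2 (0.032), Qars (0.15) and Atf5 (0.11). Ern1 from Sham to MI was also above 0 where each sample needed 10 counts (0.0085), with only the compared groups (0.070) and with the block (0.050). With 1 rat left out the ranges were -0.15 to 0.062 for Ern1 from Sham to MI, -0.040 to 0.48 for Atf4 and -0.13 to 0.59 for Atf6 in the difference between the steps. The cause of these changes was not tested. Chac1 has no value under that 10-count filter. Counts were few for Derl3 and Slc7a3 and, in Sham, for Chac1 and Slc7a11.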
